A study of Homo sapiens with 6 samples.

Results

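BCDIN3D, FAIM2, AQP2, AQP5, AQP6 and RACGAP1 are 6 of the 35410 genes counted in this data set, and they lie side by side on the long arm of chromosome 12. They were chosen by name, because FAIM2, AQP2, AQP5 and AQP6 are neighbours that are almost without counts in the control line and present in the EGR3 line, while BCDIN3D and RACGAP1 flank them on either side. The counts themselves therefore chose these genes, and their values are given as a description without a test.

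The study asked which genes change when EGR3, a zinc finger transcription factor of the early growth response family, is overexpressed in the leukemia cell line SEM. SEM is a human proB cell line that carries the fusion gene KMT2A::AFF1. The control line, SEM::mock, holds the empty doxycycline-inducible vector, and SEM::EGR3 holds the same vector with EGR3. Both lines received doxycycline at 1 µg/mL for 48 h, and each gave 3 biological replicates. Each vector is represented by 1 line, so an effect of EGR3 and any other difference between these lines cannot be told apart. RNA was measured by massive analysis of cDNA ends (MACE-Seq), which counts a tag near the 3′ end of each transcript, so that levels of different genes can be set side by side without a correction for length.

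Aquaporins are channel proteins that let water, and in some members glycerol or ions, cross membranes. AQP2 is the vasopressin-regulated water channel of the renal collecting duct, where protein kinase A drives its vesicles to the surface. AQP5 is the water channel of salivary, lacrimal and airway glands, and AQP6 is a vesicle protein of intercalated cells of the kidney that also passes anions. FAIM2, also called LIFEGUARD, is a membrane protein of neurons that blocks cell death from the Fas receptor and belongs to the TMBIM family. BCDIN3D methylates the end phosphate of the histidine tRNA, and RACGAP1 is, with KIF23, part of the centralspindlin complex that cells need for cytokinesis.

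The genes occupy 197.1 kb of chromosome 12 in the GENCODE 29 annotation of GRCh38. BCDIN3D (ENSG00000186666) lies at chr12:49836039-49843129 on the minus strand, and FAIM2 (ENSG00000135472) follows after 23.8 kb at chr12:49866896-49904217, also on the minus strand. After a gap of 46.5 kb come the aquaporins, all 3 on the plus strand and together within 26.4 kb. AQP2 (ENSG00000167580) lies at chr12:49950741-49958881, AQP5 (ENSG00000161798) at chr12:49961870-49965681 and AQP6 (ENSG00000086159) at chr12:49967194-49977139. Only 2.99 kb separate AQP2 from AQP5, and 1.51 kb separate AQP5 from AQP6 in this annotation. RefSeq leaves a wider gap there, since it ends AQP5 at 49965682 and starts AQP6 at 49972947. RACGAP1 (ENSG00000161800) lies at chr12:49976923-50033136 on the minus strand, and its 3′ end overlaps that of AQP6 by 217 bases. The overlap comes from 1 of 28 RACGAP1 transcripts, while RefSeq leaves 12.02 kb between these genes.

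RefSeq promoter sequences of GRCh38.p14, from 250 bases before to 50 after the start, were at hand for AQP2, AQP5 and BCDIN3D. They are shown because AQP2 and AQP5 are neighbours with almost no counts in SEM::mock, whereas BCDIN3D is the flanking gene with counts in both lines. Each is written 5′ to 3′ on the strand of its gene, and capitals mark matches, on either strand, to the letters TATAAA (the TATA box), its variant spelled TATATA, the GC box GGGCGG of SP and KLF factors, GCGNGGGCG (the core bound by EGR factors), CACGTG (an E box), the motif AGATAA bound by GATA factors, or TGACGTCA (the cAMP response element).
AQP2 promoter, chr12:49950487-49950786, plus strand: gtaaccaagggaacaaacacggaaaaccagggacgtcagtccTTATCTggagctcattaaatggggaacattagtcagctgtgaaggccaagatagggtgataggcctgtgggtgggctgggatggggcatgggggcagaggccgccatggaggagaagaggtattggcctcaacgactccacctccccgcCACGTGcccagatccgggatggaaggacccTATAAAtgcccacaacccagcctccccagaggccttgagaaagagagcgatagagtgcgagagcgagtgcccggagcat
AQP5 promoter, chr12:49961622-49961921, plus strand: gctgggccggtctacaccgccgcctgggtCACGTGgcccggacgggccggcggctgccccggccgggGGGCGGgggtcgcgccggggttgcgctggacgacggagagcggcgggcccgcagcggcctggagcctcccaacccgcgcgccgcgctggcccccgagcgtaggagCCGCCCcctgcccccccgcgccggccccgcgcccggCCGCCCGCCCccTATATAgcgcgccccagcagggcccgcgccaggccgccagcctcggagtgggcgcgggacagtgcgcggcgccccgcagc
BCDIN3D promoter, chr12:49843057-49843356, minus strand: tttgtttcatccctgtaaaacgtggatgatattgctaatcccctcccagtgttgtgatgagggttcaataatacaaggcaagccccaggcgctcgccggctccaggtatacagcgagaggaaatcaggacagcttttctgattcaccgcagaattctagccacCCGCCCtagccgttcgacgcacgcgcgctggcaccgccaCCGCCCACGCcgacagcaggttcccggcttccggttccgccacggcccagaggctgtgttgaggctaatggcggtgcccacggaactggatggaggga

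The AQP2 sequence holds TATAAA 29 bases before the start and the E box 59 bases before it. An AGATAA match lies 208 bases before the start, on the opposite strand. The AQP5 sequence differs in composition: 84.0% of its bases are G or C, the 99.5th percentile of 35116 RefSeq promoters of the same length, against 57.7% in AQP2, 59.0% in BCDIN3D and a median of 58.7%. It holds TATATA 30 bases before the start, the E box 221 bases before it and 4 GC boxes, of which the last pair share bases. BCDIN3D holds 2 GC boxes and, overlapping 1 of them, the only GCGNGGGCG match of the 3 sequences. TGACGTCA is in none of the 3. For comparison, TATAAA is in 11.5% of all these promoters, TATATA in 3.99%, GGGCGG in 45%, GCGNGGGCG in 9.43%, CACGTG in 7.26%, AGATAA in 10.3% and TGACGTCA in 1.85%. A match describes these letters and no more, and its absence from this window says nothing of the factor.

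Depth ranged from 5286115 to 6181388 counts per library in SEM::mock and from 7293092 to 15106018 in SEM::EGR3. EGR3, read to check the labels, had 8, 10 and 6 counts in the mock libraries and 9768, 4952 and 5557 in the EGR3 libraries. Marker genes moved with the lines. The summed level of 11 B-lineage markers was 2.64 to 5.86 CPM (counts per 1000000 of a library, after scaling by the trimmed mean of M-values method, TMM) in SEM::mock, with 8 of the 11 at no more than 3 counts in each library and EBF1 at 0, against 495 to 522 CPM in SEM::EGR3. The B-lineage markers DNTT and RAG2 had no more than 2 counts in any library of either line. For 6 known targets of KMT2A fusions the sums were 179 to 197 CPM in SEM::mock against 1011 to 1106 CPM in SEM::EGR3. CDK6 alone averaged 140 CPM in SEM::mock, whereas HOXA9 had 1, 2 and 3 counts there and FLT3 had 1, 0 and 4. In SEM::EGR3, HOXA9 had 825, 360 and 491 counts and FLT3 had 4998, 2285 and 2961. All 6 targets were higher in SEM::EGR3. Erythroid markers, a list of 11 added after the counts were seen, were abundant in all 6 libraries. They summed to 4290 to 4517 CPM in SEM::mock and 3657 to 3753 CPM in SEM::EGR3. GATA1 had 1694 to 2072 counts in SEM::mock and 2191 to 4426 in the deeper SEM::EGR3 libraries. Its mean level was lower in SEM::EGR3, at 285 CPM against 335 CPM in SEM::mock. The libraries labelled SEM::mock thus lack most of the B-lineage markers of a proB line. Those labelled SEM::EGR3 carry most of these B-lineage markers together with erythroid markers. This difference between the lines accompanies every value below. Its part in them was not tested. Fewer cells of a type and less RNA per cell cannot be told apart in such bulk samples.

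FAIM2 and the aquaporins were at the detection limit in SEM::mock, defined here as no more than 3 counts in each of the 3 libraries, and had 37 to 373 counts in each SEM::EGR3 library. AQP2 was the most abundant of them and FAIM2 the least. BCDIN3D was higher in SEM::EGR3 by less than 2-fold, and RACGAP1 had overlapping levels in both lines.

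**Figure D1:**
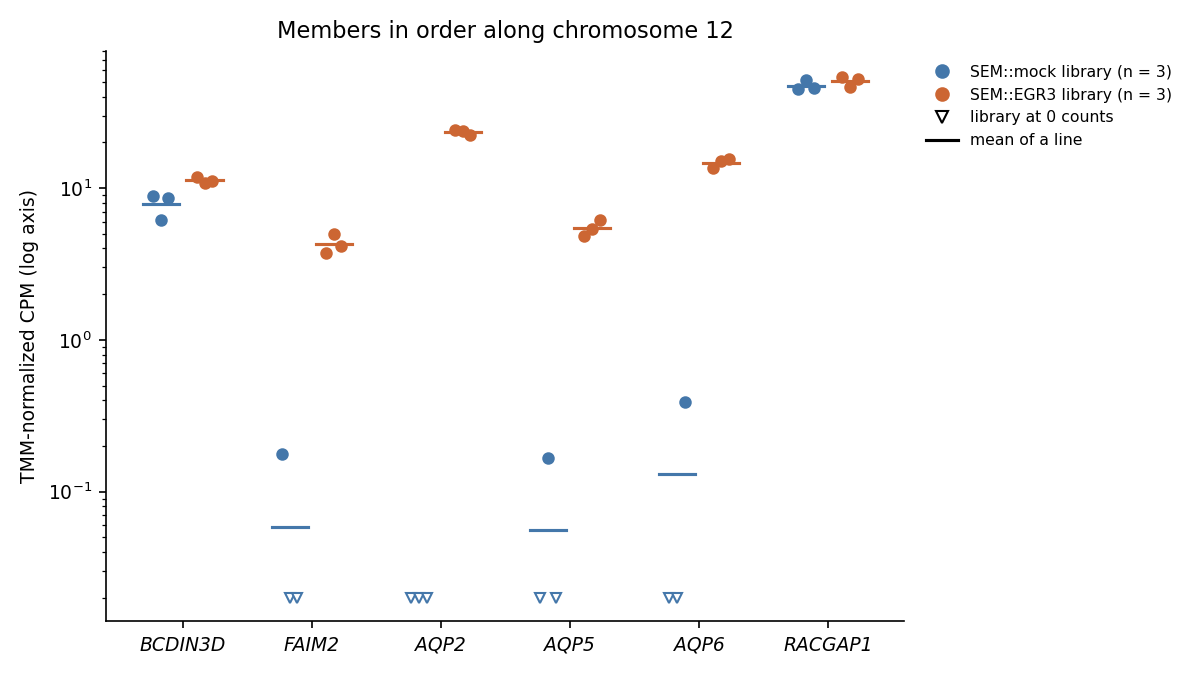
TMM-normalized CPM of the 6 genes on a log axis, in their order along chromosome 12; each circle is 1 library, bars are means of 3 libraries and open triangles are libraries with 0 counts. FAIM2, AQP2, AQP5 and AQP6 have no mock library above 0.391 CPM and no EGR3 library below 3.73 CPM, while BCDIN3D and RACGAP1 are present in every library.

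AQP2 had 0, 0 and 0 counts in the mock libraries and 373, 177 and 204 in the EGR3 libraries. No count was seen in SEM::mock at all, and the groups did not overlap. The EGR3 values correspond to 24.0, 23.7 and 22.5 CPM, with a mean of 23.4 ± 0.814 (SD, n = 3). Set against 3 counts over the whole mock group, which equal 0.179 CPM, the AQP2 level in SEM::EGR3 was at least 131-fold higher.

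AQP5 had 0, 1 and 0 counts in the mock libraries and 75, 40 and 56 in the EGR3 libraries. A single tag in mock replicate 2 is all that SEM::mock held of this glandular channel. AQP5 averaged 5.45 ± 0.677 CPM in the EGR3 line against 0.0556 ± 0.0963 CPM in the mock line (SD, n = 3 each). The ratio of the pooled counts per effective library size was 89.5, with an exact 95% counting interval of 15.8 to 3554 that reflects the 1 mock count.

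AQP6 had 0, 0 and 2 counts in the mock libraries and 212, 112 and 141 in the EGR3 libraries. Both mock tags came from replicate 3, and the lowest EGR3 library lay far above it. This vesicular channel averaged 14.7 ± 0.987 CPM in the EGR3 line against 0.130 ± 0.226 CPM in the mock line (SD, n = 3 each), a pooled ratio of 122 (exact 95% counting interval 33.5 to 1007).

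FAIM2 had 1, 0 and 0 counts in the mock libraries and 58, 37 and 38 in the EGR3 libraries. The groups were separate here too, although FAIM2 had the lowest counts of the genes that appeared. FAIM2 averaged 4.29 ± 0.626 CPM in the EGR3 line against 0.0587 ± 0.102 CPM in the mock line (SD, n = 3 each), a pooled ratio of 69.6 (exact 95% counting interval 12.3 to 2769).

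SEM::EGR3 libraries were deeper, so the counts were also scaled to the smallest library. On that scale AQP2 would have had 131, 128 and 122 counts, AQP6 74.2, 81.2 and 84.2, AQP5 between 26.2 and 33.5, and FAIM2 20.3, 26.8 and 22.7. Every EGR3 value scaled in this way stayed above 3 counts.

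The flanking genes were measured in all libraries. BCDIN3D, the methyltransferase of the histidine tRNA, had 50, 37 and 44 counts in the mock libraries and 185, 80 and 101 in the EGR3 libraries, which correspond to 8.80, 6.17 and 8.59 CPM against 11.9, 10.7 and 11.1 CPM. All EGR3 libraries lay above all mock libraries. The mock and EGR3 means were 7.86 ± 1.46 and 11.2 ± 0.586 CPM (SD, n = 3 each). This gave a log2 fold change of 0.54 with a standard error of 0.16, and a pooled ratio of 1.46 (exact 95% counting interval 1.19 to 1.80). RACGAP1, the centralspindlin subunit, had 257, 309 and 232 counts in the mock libraries and 842, 344 and 477 in the EGR3 libraries, or 45.2, 51.5 and 45.3 CPM against 54.1, 46.1 and 52.5 CPM. EGR3 replicate 2 lay below mock replicate 2, so the lines overlapped. The mock and EGR3 means were 47.4 ± 3.62 and 50.9 ± 4.20 CPM (SD, n = 3 each). RACGAP1 thus had a log2 fold change of 0.11 with a standard error of 0.08, at a pooled ratio of 1.09 (exact 95% counting interval 1.00 to 1.19). Without mock replicate 2, or without EGR3 replicate 2, RACGAP1 no longer overlapped.

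Libraries of the lines did not overlap for 5 of the 6 genes, each higher in SEM::EGR3. Over all 15465 genes with enough counts for a test, 70.1% did not overlap, with 37.5% higher and 32.6% lower in the EGR3 line. All 6 genes passed this filter, but FAIM2, AQP2, AQP5 and AQP6 passed it through their EGR3 libraries alone. These 4 genes had no more than 3 counts in each mock and at least 10 in each EGR3 library, as did 4.31% of 17312 protein-coding genes. Because the genes were chosen for this pattern, nothing follows from their counts against these shares.

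Within SEM::EGR3 the order of levels was RACGAP1, AQP2, AQP6, BCDIN3D, AQP5 and FAIM2. Neighbours in this order were separate in all libraries except AQP5 and FAIM2, whose lowest and highest values crossed at 4.82 and 4.96 CPM. RACGAP1 stood at the 73.9th percentile of tested genes in SEM::EGR3, AQP2 at the 53.7th, AQP6 at the 42.4th, BCDIN3D at the 36.6th, AQP5 at the 23.3rd and FAIM2 at the 19.4th. AQP2, without a count in SEM::mock, was thus near the middle of the tested genes in SEM::EGR3.

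The proportions among FAIM2 and the aquaporins varied little between libraries. Together they had 718, 366 and 439 counts in the EGR3 libraries. AQP2 made up 46.5% to 51.9% of this sum, AQP6 29.5% to 32.1%, AQP5 10.4% to 12.8% and FAIM2 8.08% to 10.1%. AQP5, the middle of the 3 aquaporins, had the fewest counts of them in each library.

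Tags can be assigned to a wrong gene where sequences are alike, so the annotated transcripts were searched for stretches of 30 bases that also occur in transcripts of other genes. On the same strand, FAIM2, AQP2 and AQP5 shared 0 such stretches with any other gene, and none of the 6 genes shared one with another of the 6. AQP6 shared 3.29% of its stretches, BCDIN3D 7.5% and RACGAP1 4.82%, the last with 3 genes that include its pseudogene RACGAP1P. On the opposite strand, AQP2 shared 680 of 4355 stretches with the overlapping antisense genes AC025154.1 and AC025154.2, and RACGAP1 shared 110 with AQP6. BCDIN3D shared 836 of 3720 opposite-strand stretches with 2181 genes, and AQP6 286 of 5229 with 2722 genes. The strand setting of the counting is not given in the sources used here, so reads of AQP2 and its antisense partners, and reads from the shared end of AQP6 and RACGAP1, may not have been told apart, and tags from the other shared stretches of BCDIN3D and AQP6 are uncertain as well.

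The genes between the flanks were read from the same table. AC025154.2, on the minus strand across AQP2 and AQP5, had 0 counts in each mock library and 17, 7 and 7 in the EGR3 libraries. LINC02395, a long noncoding RNA between FAIM2 and AQP2, had 0 counts in each mock library and 6, 3 and 6 in the EGR3 libraries, and its neighbour LINC02396 had 0, 2 and 1 in the latter. The ribosomal protein pseudogene RPL35AP28, between BCDIN3D and FAIM2, had 7, 13 and 9 counts in the mock and 32, 20 and 12 in the EGR3 libraries. Of these, only RPL35AP28 had enough counts for the test, which it did not pass (log2 fold change 0.21, standard error 0.33, Benjamini-Hochberg adjusted p = 0.598 in edgeR's quasi-likelihood test). The long noncoding and antisense genes between FAIM2 and AQP5 thus had counts in SEM::EGR3 alone, fewer than FAIM2 or the aquaporins, whereas the pseudogene had counts in both lines.

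Besides the 6 genes and those between them, the table held 31 further genes within 500 kb of either side. Among them, BCDIN3D-AS1 overlaps BCDIN3D on the plus strand. It had 3, 4 and 0 counts in the mock and 8, 6 and 3 in the EGR3 libraries, too few for the test. Of the 31 genes, 16 were tested. At an adjusted p under 0.05 in the quasi-likelihood test, 7 rose and 4 fell, and the median log2 fold change was 0.11, against 0.03 for all tested genes. Of all tested genes 36.5% were higher and 32% lower, so the share of changed neighbours was close to that of genes at large. Of the 3 nearest protein-coding genes on the BCDIN3D side, NCKAP5L fell by 0.73 on the log2 scale (standard error 0.15, Benjamini-Hochberg adjusted p = 1.32e-04, edgeR). TMBIM6, the Bax inhibitor of the family of FAIM2, rose by 0.25 (standard error 0.05, Benjamini-Hochberg adjusted p = 6.68e-05, edgeR). FMNL3, a formin that shapes actin, rose by 1.14 (standard error 0.10, Benjamini-Hochberg adjusted p = 1.45e-10, edgeR).

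On the RACGAP1 side, ASIC1, an acid-sensing ion channel, had 137, 133 and 107 counts in the mock libraries and 126, 68 and 66 in the EGR3 libraries. Its level fell by 1.47 on the log2 scale (standard error 0.13, Benjamini-Hochberg adjusted p = 1.69e-10, edgeR). SMARCD1, a subunit of the SWI/SNF chromatin remodeler, rose by 0.32 (standard error 0.08, Benjamini-Hochberg adjusted p = 0.00109, edgeR). GPD1, the cytosolic glycerol-3-phosphate dehydrogenase, had 2, 3 and 2 counts against 119, 63 and 51, a log2 fold change of 4.07 (standard error 0.35, Benjamini-Hochberg adjusted p = 2.53e-10, edgeR). GPD1 was thus at the detection limit in SEM::mock and present in SEM::EGR3, although ASIC1 and SMARCD1, with counts in both lines, lie between it and the aquaporins. At the far end of the BCDIN3D side, DNAJC22 had 12, 16 and 10 counts against 343, 165 and 177, and rose by 3.22 (standard error 0.18, Benjamini-Hochberg adjusted p = 3.25e-14, edgeR). C1QL4 had 3, 3 and 1 counts against 52, 21 and 28, and rose by 2.87 (standard error 0.40, Benjamini-Hochberg adjusted p = 7.52e-07, edgeR). Genes that changed by 1 or more on the log2 scale were thus found on both sides, with ASIC1, which fell, directly beyond RACGAP1.

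**Figure D2:**
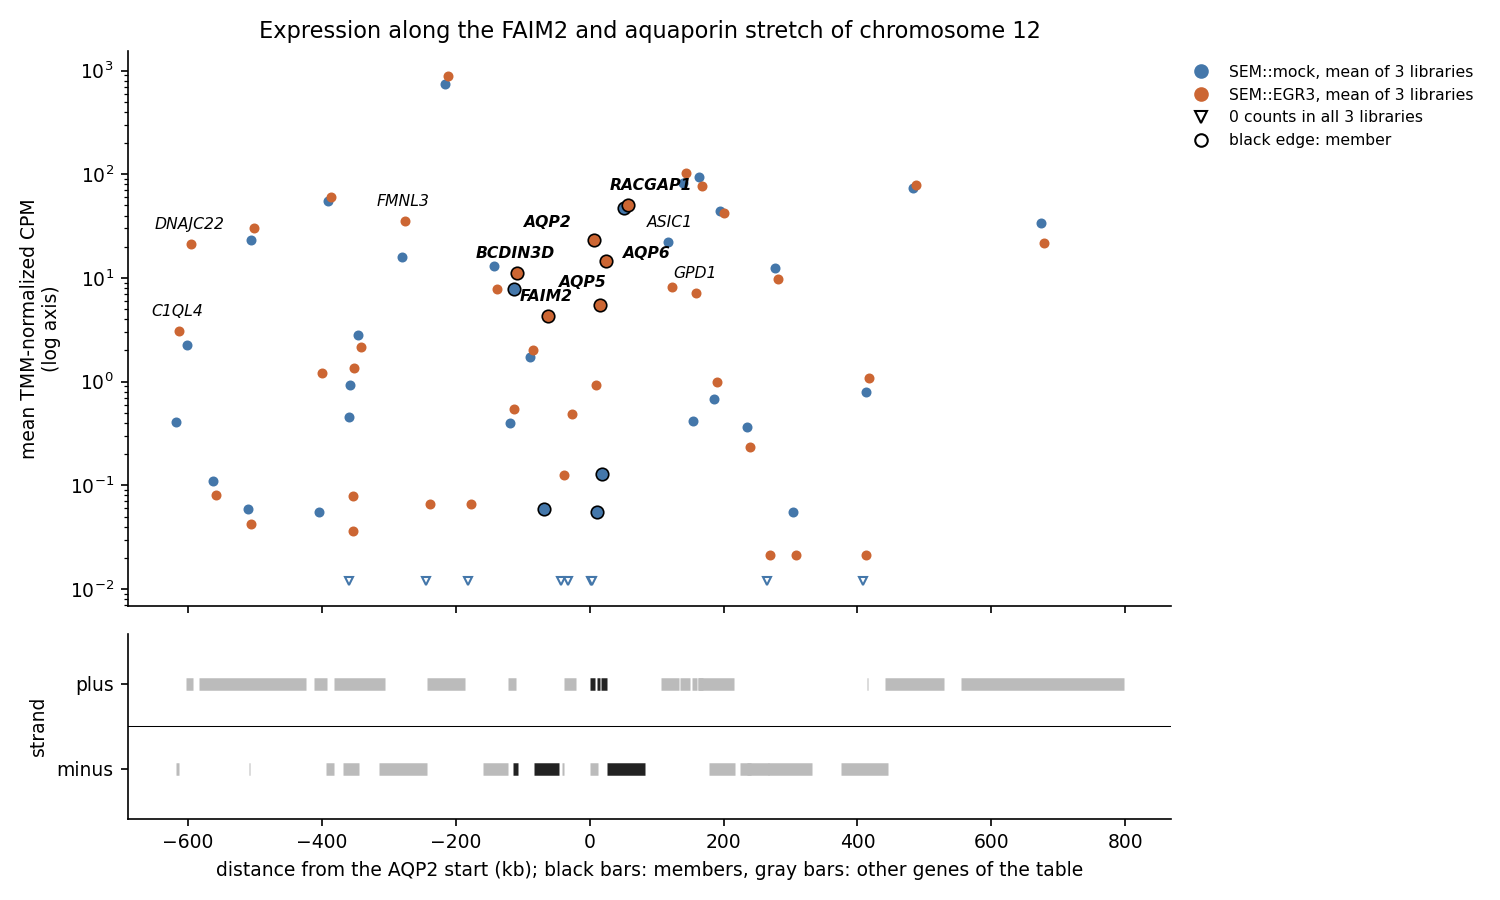
Mean TMM-normalized CPM of 3 libraries per line on a log axis against the distance from the AQP2 start in kb (top; triangles are 0 counts in all 3 libraries), with the genes of the table on each strand (bottom; black bars are the 6 genes). FAIM2 and the 3 aquaporins form a stretch with EGR3 values of 4.29 to 23.4 CPM and mock values of no more than 0.130 CPM, while BCDIN3D and RACGAP1 at its ends have counts in every library.

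How often protein-coding neighbours shared this pattern was counted along chromosomes 1 to 22, X and Y. Runs of at least 3 consecutive protein-coding genes that were at the detection limit in SEM::mock and had at least 10 counts in each EGR3 library occurred 7 times. The run from FAIM2 to AQP6, of 4 genes over 110.2 kb, was the longest, which is a description, since these genes were chosen for it. The other runs had 3 genes each. They were HES2, ESPN and TNFRSF25 on chromosome 1, RETREG1, MYO10 and BASP1 on chromosome 5, LCN6, LCN8 and LCN15 and also CYSRT1, RNF224 and SLC34A3 on chromosome 9, TCL1A, TUNAR and C14orf132 on chromosome 14, and COL6A1, COL6A2 and FTCD on chromosome 21. Each of FAIM2 to AQP6 held at least 37 counts in each EGR3 library, against lowest counts of 11 to 20 in the other runs. With a limit of 1 mock count the runs numbered 2 and the run at AQP2 had 3 genes, since AQP6 had 2 counts in 1 library. With a limit of 10 mock counts they numbered 16. When noncoding genes of the table were included there were 9 runs of up to 5 genes, and FAIM2 to AQP6 was not among them, because LINC02395 and AC025154.2 had fewer than 10 counts in at least 1 EGR3 library.

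The genes whose pattern was most like that of AQP2 were sought by Pearson's r over the 6 libraries, on log2(CPM + 1), among 5310 tested genes with an EGR3 level within 2-fold of its own. The 5 closest were MB (myoglobin), MYO7B (a myosin of the brush border), WDFY4 (a protein of antigen presentation), VAT1L and PDE6B (a phosphodiesterase of rods), each with r = 1.00 and with 0 counts in every mock library. Their levels in SEM::EGR3 were 33.9 ± 1.24, 41.8 ± 1.85, 12.3 ± 0.448, 24.0 ± 1.17 and 22.3 ± 0.410 CPM (SD, n = 3 each), against 23.4 ± 0.814 CPM for AQP2. AQP2 was not alone with this pattern, since 457 genes had r above 0.99. Such an r over 2 lines mostly restates that a gene is low in one and high in the other, and the libraries share depth and line, so no p is given.

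The remaining aquaporins did not share the pattern of the cluster. Of 11 other human aquaporins 10 were in the table, AQP11 was not analysed here, and 4 had enough counts for the test. AQP1, the widespread water channel that red blood cells carry, had 22, 16 and 21 counts in the mock and 170, 83 and 102 in the EGR3 libraries. It was present in both lines and rose by 1.65 on the log2 scale (standard error 0.19, Benjamini-Hochberg adjusted p = 2.39e-08, edgeR). AQP10, a glycerol channel, had 77, 78 and 81 against 42, 18 and 34 counts and fell by 2.26 (standard error 0.18, Benjamini-Hochberg adjusted p = 5.25e-11, edgeR). AQP3, the aquaglyceroporin with the highest level of the family, had 934, 905 and 846 counts in the mock and 2143, 1036 and 1195 in the deeper EGR3 libraries and fell by 0.23 (standard error 0.06, Benjamini-Hochberg adjusted p = 8.32e-04, edgeR). AQP7 had 13 to 15 counts against 17 to 50 and did not pass the test (log2 fold change 0.08, standard error 0.27, Benjamini-Hochberg adjusted p = 0.796, edgeR). MIP, AQP4, AQP8, AQP9, AQP12A and AQP12B had no more than 3 counts in any library and were not tested. Of the family outside the cluster, 1 of 4 tested genes thus rose and 2 fell. Their median log2 fold change was -0.07 against 0.03 for all tested genes. None of the 10 aquaporins outside the cluster in the table went from the detection limit to at least 10 counts in each EGR3 library.

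The TMBIM family of FAIM2, to which FAIM (a Fas inhibitor of another structure) was added, had 6 tested genes. Of these 2 rose, 3 fell and 1 did not pass the threshold, with a median log2 fold change of -0.30, against 36.5% of all tested genes that rose and 32% that fell. FAIM had 34, 23 and 21 counts in the mock and 330, 169 and 194 in the EGR3 libraries and rose by 2.22 on the log2 scale (standard error 0.15, Benjamini-Hochberg adjusted p = 3.14e-12, edgeR). TMBIM1 fell by 1.91 (standard error 0.07, Benjamini-Hochberg adjusted p = 6.92e-18, edgeR) and GRINA by 1.36 (standard error 0.06, Benjamini-Hochberg adjusted p = 1.11e-15, edgeR). The most abundant member, TMBIM6, is the neighbour of the cluster described above, with means of 743 ± 22.4 CPM in the mock and 885 ± 20.8 CPM in the EGR3 line (SD, n = 3 each). GHITM, the mitochondrial member, did not pass the test (log2 fold change 0.04, standard error 0.05, Benjamini-Hochberg adjusted p = 0.506, edgeR). FAIM2 was the only one of these genes, with FAIM2 itself counted, at the detection limit in SEM::mock.

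**Figure D3:**
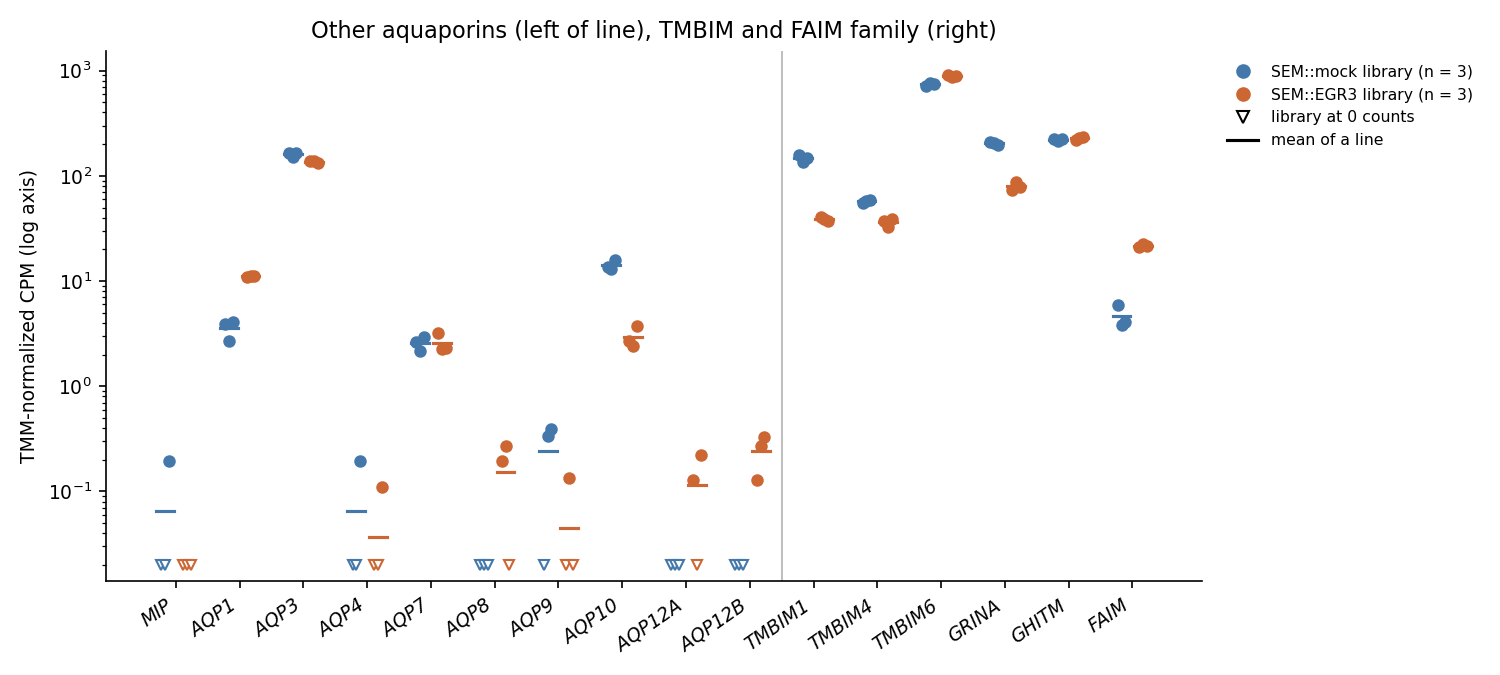
TMM-normalized CPM on a log axis of the other aquaporins (left of the line) and of the relatives of FAIM2 (right); circles are libraries, bars are means of 3 libraries and triangles are libraries with 0 counts. AQP1 and FAIM are higher in SEM::EGR3 and AQP10, TMBIM1 and GRINA lower, while 6 aquaporins stay at no more than 3 counts in every library of both lines.

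FAIM2 acts on the death receptor pathway, of which 13 genes were tested. In SEM::EGR3 2 were higher, 6 lower and 5 not past the threshold, with a median log2 fold change of -0.30. For comparison, 68.5% of all tested genes changed in either direction. FAS, the receptor that FAIM2 is known to counter, had 18 to 34 counts in the mock and 24 to 58 in the EGR3 libraries and did not pass the test (log2 fold change -0.30, standard error 0.25, Benjamini-Hochberg adjusted p = 0.296, edgeR). Its ligand FASLG had 0, 1 and 0 counts in the mock and 43, 20 and 28 in the EGR3 libraries. It was at the detection limit in SEM::mock, like FAIM2, and its pooled ratio was 47.6 with an exact 95% counting interval of 8.33 to 1901 (Benjamini-Hochberg adjusted p = 5.51e-08, edgeR). The TRAIL receptors TNFRSF10A and TNFRSF10B fell by 2.27 (standard error 0.15, adjusted p = 1.72e-12) and 1.98 (standard error 0.10, adjusted p = 1.01e-14) in edgeR's test with Benjamini-Hochberg adjustment. BID, which links the receptors to mitochondria, fell by 1.74 (standard error 0.07, Benjamini-Hochberg adjusted p = 6.29e-17, edgeR). CFLAR, an inhibitor of caspase 8, fell by 1.65 (standard error 0.06, Benjamini-Hochberg adjusted p = 9.49e-18, edgeR). The call of FADD, the adaptor of Fas and higher by 0.25, was lost without mock replicate 1 or without EGR3 replicate 1.

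AQP2 depends in the kidney on the vasopressin receptor AVPR2, adenylyl cyclase and protein kinase A. AVPR2 had 0 counts in each mock library and 1, 0 and 1 in the EGR3 libraries, so the receptor was at the detection limit in both lines. Of 13 genes of this pathway 10 were tested, 4 were higher and 4 lower, with a median log2 fold change of -0.05, while 68.5% of all tested genes changed in either direction. PRKAR2B, a regulatory subunit of protein kinase A, fell by 1.40 (standard error 0.08, Benjamini-Hochberg adjusted p = 9.46e-14, edgeR). PRKAR2A fell by 0.40 (standard error 0.06, Benjamini-Hochberg adjusted p = 4.17e-06, edgeR), and the catalytic subunit PRKACA rose by 0.28 (standard error 0.06, Benjamini-Hochberg adjusted p = 2.25e-04, edgeR). VAMP3, a vesicle fusion protein, was lower by 0.19 on the log2 scale, a call that was lost without mock replicate 2, without EGR3 replicate 1, without normalization factors, with a minimum of 10 counts in every library or in DESeq2. Other genes of the collecting duct were low as well. All 7 of its markers in the table were at the detection limit in SEM::mock, with a summed level of 0.586 to 1.23 CPM, against 6.10 to 7.11 CPM in SEM::EGR3. The sodium channel subunit SCNN1A had 34, 22 and 19 counts in SEM::EGR3 and the anion exchanger SLC4A1, also a protein of red blood cells, had 35, 16 and 26, whereas SCNN1G had 0 in all 6 libraries. AQP2 alone, at 23.4 CPM, was thus more abundant in SEM::EGR3 than these 7 markers together.

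Markers of the tissues known for AQP5 and FAIM2 were read in the same way. Of 8 genes of glands and lung epithelium, CDH1, KRT5, MUC7, STATH and SFTPC had no more than 3 counts in any library. The sum of the list, made up of KRT8, KRT18 and EPCAM, was 738 to 773 CPM in SEM::mock and 386 to 408 CPM in SEM::EGR3, so these were lower in the line in which AQP5 was higher. Of 8 neuronal genes, RBFOX3, SNAP25, NEFL, NEFM and STMN2 had no more than 5 counts in any library. The neuronal sum was 6.51 to 8.20 CPM in SEM::mock and 75.9 to 84.5 CPM in SEM::EGR3, of which the vesicle protein SYT1 gave 73.5 ± 4.38 CPM (SD, n = 3). MAP2, a microtubule protein of dendrites, had 0, 2 and 0 counts in the mock and 75, 36 and 50 in the EGR3 libraries, while GAP43, of growing axons, had 16 to 19 against 3 to 15. SYT1 and MAP2 were thus higher in SEM::EGR3, like FAIM2, and their part in its level was not tested.

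RACGAP1 was compared with 10 other genes of cytokinesis, all of which were tested. Of these 5 were higher and 3 lower, none by 1 or more on the log2 scale, and the median log2 fold change was 0.16. For comparison, 36.5% of all tested genes were higher and 32% lower. KIF23, its partner in centralspindlin, went from 31.8 ± 0.375 to 41.4 ± 2.61 CPM (SD, n = 3 each) and rose by 0.39 (standard error 0.08, Benjamini-Hochberg adjusted p = 1.72e-04, edgeR). The small GTPase RHOA, the most abundant of the list, rose by 0.60 (standard error 0.05, Benjamini-Hochberg adjusted p = 4.46e-10, edgeR), and the kinase AURKB by 0.71 (standard error 0.07, Benjamini-Hochberg adjusted p = 1.15e-09, edgeR). PLK1 fell by 0.17 (standard error 0.06, Benjamini-Hochberg adjusted p = 0.00936, edgeR), a call that was lost without normalization factors or with a minimum of 10 counts in every library. ECT2, the exchange factor that centralspindlin recruits, did not pass the test at a log2 fold change of 0.02 (standard error 0.12, Benjamini-Hochberg adjusted p = 0.902, edgeR). The call of ANLN, lower by 0.36 on the log2 scale, was lost without mock replicate 3, and that of CEP55, higher by 0.30, without mock replicate 2 or without EGR3 replicate 3.

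BCDIN3D was compared with 7 genes that act on the histidine tRNA, on RNA caps or on small RNA precursors. Of these 5 were higher and 1 lower, none by 1 or more on the log2 scale, and the median log2 fold change was 0.20, while BCDIN3D had 0.54. Among all tested genes, 36.5% were higher and 32% lower. Without mock replicate 2, without mock replicate 3, in DESeq2 or with a block for the replicate number, the called genes of this list numbered 4 in place of 6. In these settings HARS2, the mitochondrial histidyl-tRNA synthetase, and MEPCE were no longer called. HARS1, the cytosolic histidyl-tRNA synthetase, rose by 0.32 (standard error 0.08, Benjamini-Hochberg adjusted p = 8.48e-04, edgeR) and LARP7, of the 7SK complex, by 0.38 (standard error 0.06, Benjamini-Hochberg adjusted p = 1.13e-05, edgeR). MEPCE, the relative of BCDIN3D that caps 7SK RNA, rose by 0.16 (standard error 0.06, Benjamini-Hochberg adjusted p = 0.0222, edgeR). This call was lost without mock replicate 2, without mock replicate 3, without EGR3 replicate 2, in DESeq2 or with a block for the replicate number. THG1L, which adds the extra guanosine of the histidine tRNA, did not pass the test (log2 fold change 0.10, standard error 0.09, Benjamini-Hochberg adjusted p = 0.335, edgeR). DICER1, of small RNA processing, was higher by 0.92 and DROSHA lower by 0.55 on the log2 scale.

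**Figure D4:**
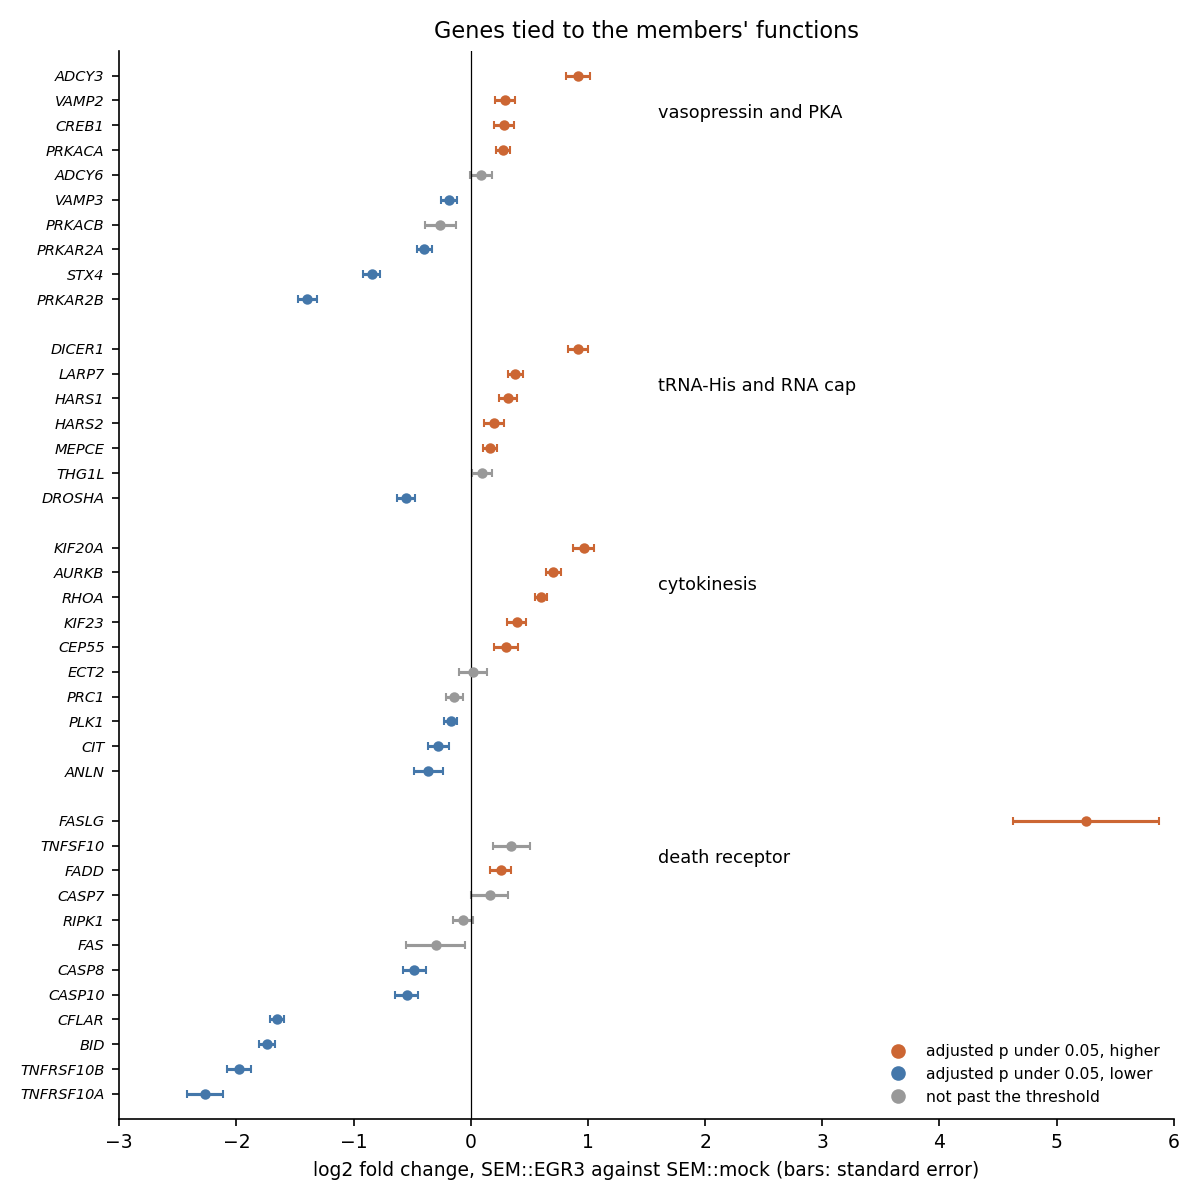
Log2 fold change of SEM::EGR3 against SEM::mock, with standard errors as bars, for tested genes of 4 lists tied to the known roles of the cluster genes; orange is higher and blue lower at an adjusted p under 0.05, and grey is not past the threshold. The cytokinesis and histidine tRNA genes all lie within 1 of 0, whereas the death receptor list reaches from -2.27 for TNFRSF10A to 5.25 for FASLG, a fitted value that rests on 1 mock count.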

How the data were processed

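Counts per gene, deposited by the authors as 1 table over both lines, were the only values tested. The submitters' processing notes name bcl2fastq, the aligner Bowtie2, the counter HTSeq and the build GRCh38. The annotation release, the strand setting and the treatment of multiply mapped reads are not given in the sources used here. The table headings spell the gene ERG3 and were matched to SEM::EGR3 through the sample titles. The authors' own comparison columns (fold changes, p-values) were not used. Their deposited CPM, in columns headed TPM, served only to infer the library totals. The authors scaled these CPM to library totals without a length correction. Their deposited signal, which the authors made by dividing counts by 1 size factor per library, was not used.

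Genes were placed by identifier in GENCODE 29 (34339 of 35410, 97.0%). Of the library totals implied by the deposited CPM, 73.6% to 75.8% fell in listed genes. Genes that passed filterByExpr (15465) were tested with edgeR 4.0.16 in R 4.3.3 by the quasi-likelihood test on all 6 libraries, with TMM factors and Benjamini-Hochberg adjustment over all tested genes. CPM and folds were computed from the deposited counts with TMM factors. Ratios pool the counts of a line over its effective library size, with exact binomial 95% intervals. Intervals and floors cover counting error only, and the intervals take each MACE-Seq tag as an independent draw. They do not cover the spread between replicates. Replicates of a line differed beyond counting noise (chi-square per degree of freedom 1.71 to 3.12) and were all kept. Replicate numbers were not taken as pairs, since libraries of the same number did not deviate together. The test was checked on simulated counts.

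The genes, the lists and their markers were chosen with earlier results of these data known. The erythroid list, the promoter motifs and some named genes were chosen after their values or sequences were seen. These named genes are EBF1, DNTT, RAG2, CDK6, HOXA9, FLT3, GATA1, BCDIN3D-AS1, FAS, FADD, KIF23 and ECT2. Also among them are ANLN, CEP55, THG1L, DICER1, DROSHA, SYT1, MAP2, GAP43, HARS2, SCNN1A and SLC4A1. Otherwise named are the 6 genes, the 3 nearest protein-coding genes on each side and all between, the neighbours and, outside the marker lists, list genes with an adjusted p under 0.05 and a log2 fold change of at least 1 in size, the 3 most abundant genes of each list, the 5 genes most like AQP2 and the genes of the other runs, all of which were named because they tied in length. Of the death receptor genes, 1 that is included in the counts of the list is not reported here by name or drawn. Alternatives were DESeq2 1.42.0, upper-quartile or no normalization factors, no filter or a minimum of 10 counts per library, a block for the replicate number, leaving out each library, and other limits for the runs.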

Additional observations from a re-analysis of the deposited data

How the results depend on the processing

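The number of runs of neighbouring genes depended on the mock limit, with 2 at no more than 1 count and 16 at no more than 10 counts, against 7 at 3 counts, since a stricter limit admits fewer genes. For the 6 cluster genes, shifts of the log2 fold change were set against the pooled SD between replicates of log2(CPM + 1). Of 68 recomputed log2 fold changes, 52 moved by less than this SD and 16 by more. These 16 were all of FAIM2, AQP2, AQP5 and AQP6, whose fitted values rest on 0 to 2 mock counts. Adding 1 shrinks the SD at such low mock counts, so it is not the error of a fitted fold change. None of the 68 values reversed. BCDIN3D ranged from 0.37 to 0.62 and RACGAP1 from 0.06 to 0.19. A minimum of 10 counts in every library removed FAIM2, AQP2, AQP5 and AQP6, so no value could be given there. Of 788 recomputed values of neighbours and list genes, 749 kept their direction and their side of the threshold, 25 lost and 14 gained the call, and none reversed. With the replicate block, 5388 genes were higher and 4694 lower, against 5638 and 4955 without it, 5 neighbours were lower in place of 4, and MEPCE and HARS2 were no longer called; same-numbered libraries had deviation correlations of -0.14 to -0.04, so the numbers do not mark pairs. The depth of SEM::mock limits FAIM2, AQP2, AQP5 and AQP6 to bounds or wide intervals.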
